A study of Mus musculus with 5 samples.

Results

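The fibroblast growth factor (FGF) genes of newborn mouse alveolar cells are described here. These are ligands, receptors, co-receptors, binding proteins, docking adaptors and feedback genes, most of which limit the signal. They were the genes whose symbols begin with Fgf and a number, Fgfr1 to Fgfr4, Fgfrl1, the Sprouty genes Spry1 to Spry4, the Spred genes Spred1 to Spred3, and Fgfbp1, Fgfbp3, Frs2, Frs3, Dusp4, Dusp6, Etv4, Kl and Klb. Of the 18194 genes with a probe set of a single symbol, 43 were members; Frs2 was not analysed here. One member, Fgf2os, is named for the strand opposite Fgf2 and is not itself an FGF. The samples were GFP-positive cells sorted by flow cytometry from lungs that had been dissociated with trypsin, taken on postnatal day 2 from SPC-GFP pups born to matings of SPC-GFP mice with the outbred ICR strain. SPC commonly stands for surfactant protein C, encoded by Sftpc, so the GFP is expected in alveolar type 2 cells, which make surfactant, and in any other cell in which the transgene is on. All 5 samples were biological replicates of this 1 group, with 1 array each and no unsorted, mutant or other comparison samples. Whether a replicate was 1 pup or a pool is not stated. All p-values below rest only on how these samples vary.

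FGFs signal between the tissue layers of the lung. In the embryo, Fgf10 from the mesenchyme binds the IIIb form of the receptor Fgfr2 on the epithelium and drives the outgrowth of the airway tips, while Fgf9 from epithelium and mesothelium acts on the mesenchyme. Bound receptors, held to their ligands by heparan sulfate, phosphorylate the Frs adaptors and switch on the RAS and ERK kinases. ERK signalling induces its own brakes: the Sprouty and Spred proteins act upstream of ERK, Dusp6 and Dusp4 remove phosphate from the kinase, and the ETS transcription factors Etv4 and Etv5 are induced alongside them.

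The labels name the cells in conflicting ways, as alveolar type 2 cells in the titles and as ciliated cells in the design text. All 13 measured alveolar type 2 markers lay above background, with Sftpc at 14.67 ± 0.053 (log2 signal, mean ± SD, n = 5), and so did 12 of 13 ciliated markers, 12 of 12 alveolar type 1, 7 of 8 club cell, 13 of 14 mesenchymal, 10 of 10 endothelial, 10 of 11 immune, 7 of 7 cardiac muscle and 3 of 7 mesothelial markers, where 74.9% of all genes were called. Markers of several other cell types were thus measured in the same RNA. Array medians ran from 7.12 to 7.19. Marker lists differed between arrays: mesenchymal markers deviated from their own means by 0.03, 0.36, −0.62, −0.11 and 0.35 log2 units in replicates 1 to 5, with 12 of 13 lowest in replicate 3, and ciliated markers by 0.92, 0.29, −0.47, −0.36 and −0.36. Replicate 3 also had the widest gap between the 3′ and 5′ Gapdh control probe sets (1.67 against 1.27 to 1.60). In bulk RNA, fewer cells of a type and less RNA per cell cannot be told apart.

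Deposited values were 1 log2 signal per probe set and array, and for each gene the probe set with the highest mean was used. Each array's background was set at the 95th percentile of 77 odorant, taste and pheromone receptor genes, whose use in lung cells is not expected, and lay at 5.45, 5.43, 5.47, 5.70 and 5.55 in replicates 1 to 5. Genes with an adjusted p under 0.05 in a one-sided moderated test of limma (Benjamini-Hochberg over 18117 genes) were called; 74.9% of these genes were. Of the FGF genes, 27 of 43 (62.8%) were called. By role these were 7 of 18 secreted ligands, 3 of 4 intracellular FGFs, 5 of 5 receptors, 1 of 2 co-receptors, 2 of 2 binding proteins, the 1 adaptor measured, 8 of 10 feedback genes and not Fgf2os. With the 99th percentile 20 were called, without Fgf3, Fgf12, Fgf13, Fgf20, Fgf22, Klb and Etv4. When the background came from genes typical of other organs (7.78 to 8.49), 17 were called, and Fgf7, Fgf11 and Fgfbp3 were lost as well. Signals of different probe sets were not ranked against each other, since probes bind with unequal strength.

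**Figure D1:**
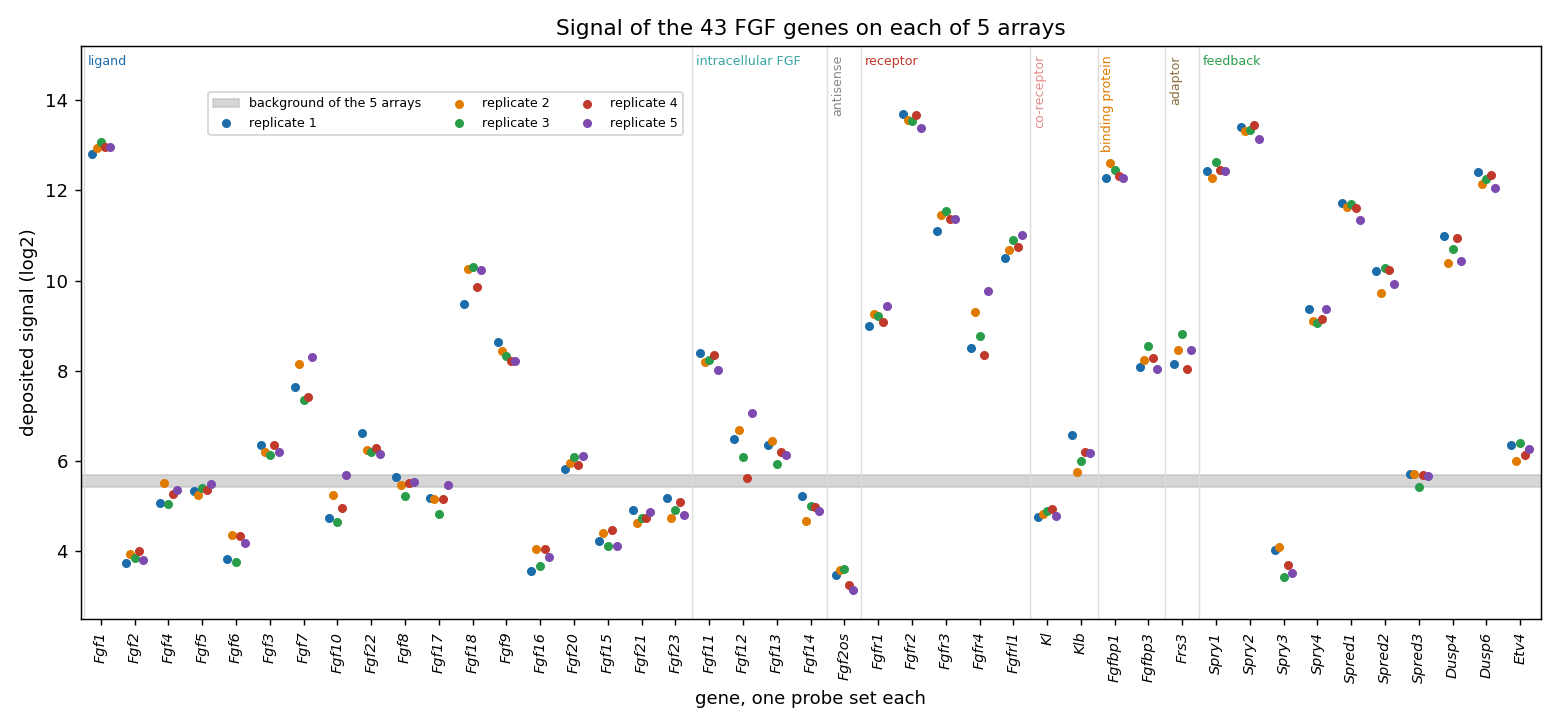
Deposited log2 signal (vertical axis) of the 43 FGF genes (horizontal axis, grouped by role) in each of the 5 replicates (coloured points); the grey band spans the background of the 5 arrays, 5.43 to 5.70. All 5 receptors lie above the band in every replicate, while most secreted ligands lie on or under it.

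All 5 receptors were above background. Fgfr2, the receptor of Fgf7 and Fgf10 on lung epithelium, read 13.70, 13.56, 13.54, 13.67 and 13.38 in replicates 1 to 5, which is 8.05 above background (SE 0.065, limma adjusted p = 5.81e-21). The 5 arrays kept within a 1.25-fold range, with replicate 5 lowest. The chosen probe set is of a type that can bind several transcripts; the other 2, at means of 11.34 and 7.04, were also called and were lowest in replicate 2. None is labelled for the IIIb or IIIc splice form, so the epithelial form was not told apart. Fgfr3, which in the postnatal lung acts with Fgfr4 in alveolar formation, read 11.09, 11.45, 11.54, 11.36 and 11.36. Replicate 1 was lowest, and the mean lay 5.84 above background (SE 0.083). The other Fgfr3 probe set, also called, read 7.51, 7.52, 7.25, 7.55 and 7.32 and was lowest in replicate 3. Fgfr1, widely used by mesenchymal cells, read 8.99, 9.25, 9.22, 9.08 and 9.43, or 3.67 above background (SE 0.11). All 3 of its probe sets were called. The chosen one is of the same type as that of Fgfr2, and without such types Fgfr1 lay 2.31 above background. Fgfrl1, a receptor without a kinase domain that binds FGFs, read 10.51, 10.67, 10.89, 10.74 and 11.01. Both of its probe sets were lowest in replicate 1 and highest in replicate 5, but both are of types that can bind several transcripts.

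Fgfr4 was the receptor that differed most between replicates. It read 8.51, 9.31, 8.77, 8.35 and 9.76 in replicates 1 to 5, a 2.65-fold range, with replicates 2 and 5 above the other three. Replicate 5 was highest in 4 of its 5 probe sets, and the fifth was highest in replicate 2. The variance of a gene over the arrays was divided by that fitted for genes of like signal and tested one-sided by an F test built on limma. Fgfr4 had an F of 8.55 and an unadjusted p of 0.0330, which did not pass after Benjamini-Hochberg adjustment over 13563 genes (adjusted p = 0.878). It was the 1 member of 27 with an unadjusted p under 0.05, where 5.62% of all genes above background had one. The F distribution was itself fitted to the variances of these genes. A share near 0.05 is therefore built in, and the p mainly ranks a gene's spread among them. After adjustment 0 members passed, and 0 of all genes did (0% called). Without replicate 5, 0 members had an unadjusted p under 0.05.

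Among secreted ligands, Fgf1, Fgf18, Fgf9 and Fgf7 were called with both the 95th and the 99th percentile as background. Fgf1, which binds all FGF receptors, read 12.81, 12.93, 13.08, 12.95 and 12.95, or 7.42 above background (SE 0.064, limma adjusted p = 9.49e-21). Its 3 probe sets were all called and all lowest in replicate 1. Fgf18, a ligand of alveolar formation and of skeletal growth, read 9.48, 10.26, 10.31, 9.85 and 10.23. Replicate 1 lay below the other four, the range was 1.77-fold, and the spread test gave an unadjusted p of 0.0681. Alveolar type 1 markers, of the flat gas exchange cells, were also lowest in replicate 1 (10 of 12 genes), with deviations of −0.23, 0.13, 0.14, −0.08 and 0.06. Fgf18 deviated by −0.54, 0.23, 0.28, −0.16 and 0.19, and Fgfr3 by −0.26, 0.10, 0.18, 0.01 and −0.02. The other Fgfr3 probe set was lowest in replicate 3. Replicate 1 also had the highest signal of the bioB and bioC hybridisation controls (12.40 against 11.48 to 11.61) and the narrowest Gapdh gap (1.27 against 1.39 to 1.67). The part of alveolar type 1 RNA, or of these array values, was not tested.

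Fgf9, made by lung epithelium and mesothelium, read 8.64, 8.43, 8.33, 8.21 and 8.22, or 2.84 above background (SE 0.13), and its other probe set was called too. Of the mesothelial list, Wt1, Lrrn4, Muc16 and Bnc1 were not called, with means from 4.56 to 5.52, whereas Msln, Upk3b and Krt19 were. These called genes did not move together: Upk3b was highest in replicate 4, where Krt19 was lowest. Fgf7, the keratinocyte growth factor of lung mesenchyme and a mitogen of alveolar type 2 cells, read 7.65, 8.16, 7.36, 7.41 and 8.31. It lay 2.26 above background (SE 0.16, limma adjusted p = 1.62e-09), but its other probe set, at 5.55 ± 0.25, did not pass (adjusted p = 0.579). Replicates 2 and 5 were highest, as for Fgfr4 and for the mesenchymal and club cell markers.

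Fgf10, the mesenchymal ligand of branching and of alveolar type 2 cell maintenance, did not rise above background. Its only probe set read 4.73, 5.24, 4.65, 4.95 and 5.69, or −0.47 against background (95% interval −0.79 to −0.15), and it exceeded background in 1 of 5 arrays. Its highest arrays were again replicates 5 and 2. Mesenchymal markers were measured in the same RNA (Col1a1 12.96 ± 0.22, Pdgfra 9.52 ± 0.34, Tcf21 11.90 ± 0.47). A probe set at background does not show that the transcript is absent.

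**Figure D2:**
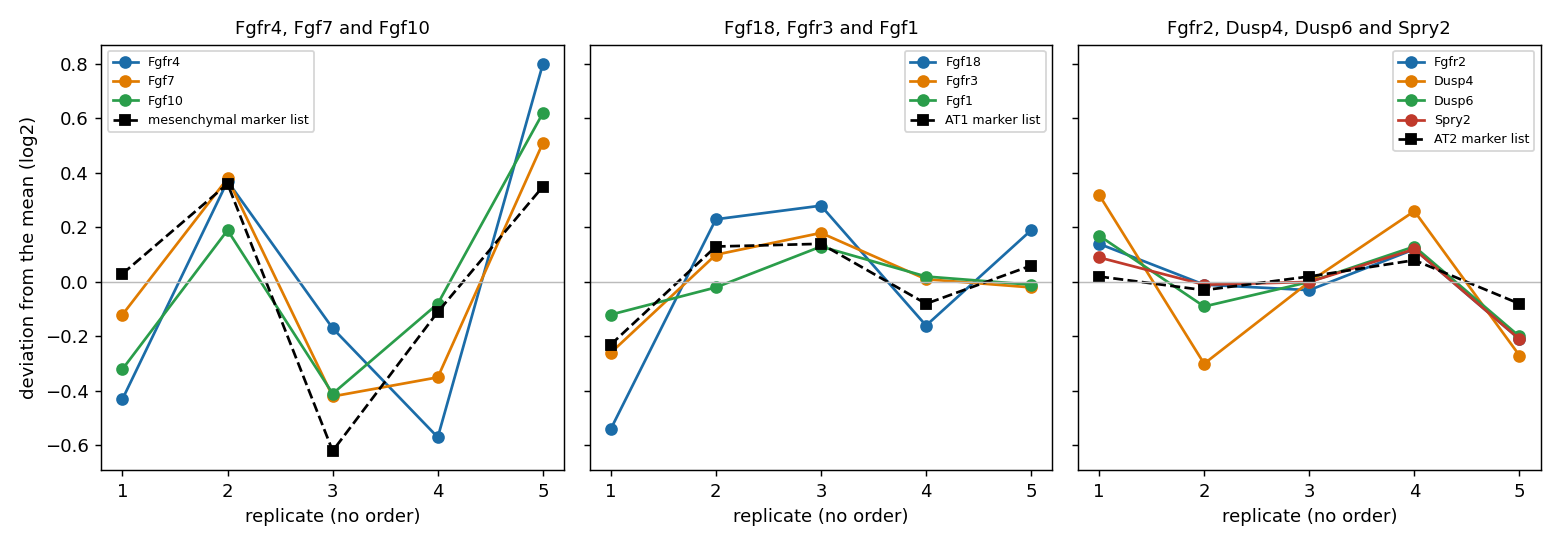
Deviation of single FGF genes from their mean (log2 units, vertical axis) in the 5 replicates (horizontal axis, in no order), with black squares for marker lists. In the left panel Fgfr4, Fgf7 and Fgf10 are high in replicates 2 and 5, as are mesenchymal markers; in the middle Fgf18, Fgfr3 and Fgf1 are low in replicate 1, as are alveolar type 1 markers; on the right Fgfr2, Dusp4, Dusp6 and Spry2 are low in replicate 5, as are alveolar type 2 markers. The genes were chosen for these panels after their values were seen. Each line is the chosen probe set, and other called probe sets of Fgfr3, Fgfr2 and Spry2 were lowest in other replicates. Fgf10 was not called, so its line shows values near background. Club cell markers, not drawn, were also high in replicates 2 and 5.

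Fgfr4 deviated from its mean by −0.43, 0.37, −0.17, −0.57 and 0.80 in replicates 1 to 5, Fgf7 by −0.12, 0.38, −0.42, −0.35 and 0.51, and Fgf10 by −0.32, 0.19, −0.41, −0.08 and 0.62. Fgf10 was not called, so its deviations are of values near background. The other Fgf7 probe set, also not called, was highest in replicate 2 and lowest in replicate 4. Mesenchymal markers deviated by 0.03, 0.36, −0.62, −0.11 and 0.35. Of the 13 called, 6 were highest in replicate 2 and 7 in replicate 5, and 12 were lowest in replicate 3, while Fgfr4 was lowest in replicate 4. Club cell markers were high in the same arrays, with deviations of −0.23, 0.32, −0.42, −0.06 and 0.41. Of the 7 called, 4 were highest in replicate 2 and 2 in replicate 5. Replicate 5 was also the highest for 7 of 10 immune, 6 of 10 endothelial and 5 of 7 cardiac muscle markers. In replicate 2 the immune and endothelial lists each deviated by −0.12. The part of RNA from these cell types in the 3 FGF genes was not tested.

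Probe sets of 1 gene did not always give the same answer. Of the 90 probe sets of the members, 52 were called in a fit of all probe sets (71.5% of all were), and calls differed within 11 of the 24 members with several.

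The remaining secreted ligands were at or near background. Fgf3, Fgf22 and Fgf20 were called, at 0.73 (SE 0.12), 0.78 (SE 0.13) and 0.45 (SE 0.13) above background, but lay below it with the 99th percentile of the receptor genes as background. Fgf22 shares a subfamily with Fgf7 and Fgf10; its second probe set averaged 4.59 and was not called. The 10 other ligands not called, besides Fgf10, were Fgf2, Fgf4, Fgf5, Fgf6, Fgf8, Fgf15, Fgf16, Fgf17, Fgf21 and Fgf23. Their means ran from 3.84 (Fgf16) to 5.47 (Fgf8). Fgf2, a basic FGF of many mesenchymal cells, read 3.73, 3.93, 3.84, 4.00 and 3.81 on its only probe set, below background on every array. The hormone-like FGFs Fgf15, Fgf21 and Fgf23, which circulate and need a klotho co-receptor, averaged 4.27, 4.78 and 4.95. Kl, the co-receptor of Fgf23, was not called (4.84 ± 0.070), and Klb, the co-receptor of Fgf15 and Fgf21, was called at 6.14 ± 0.30. Klb rested on 1 of 2 probe sets, the other averaging 3.77.

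The intracellular FGFs, Fgf11 to Fgf14, are not secreted and are known for binding voltage-gated sodium channels. Fgf11 read 8.40, 8.19, 8.25, 8.34 and 8.02, or 2.72 above background (SE 0.12), on 1 of its 2 probe sets. Fgf12 had the widest range of all called members, 6.49, 6.68, 6.09, 5.62 and 7.07, or 2.73-fold. It was under background in replicate 4 and highest in replicate 5, and all 3 of its probe sets were highest in replicate 5, although 2 of them were not called (adjusted p = 0.465 and 1). Fgf13 averaged 6.22 ± 0.20 and was called on 1 of 2 probe sets, and Fgf14 was not called on any of 4. Cardiac muscle, in which Fgf12 and Fgf13 are used, was represented by 7 of 7 markers above background, which deviated by 0.39, 0.30, −1.24, −0.09 and 0.66; the part of cardiac RNA in Fgf12 was not tested.

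**Figure D3:**
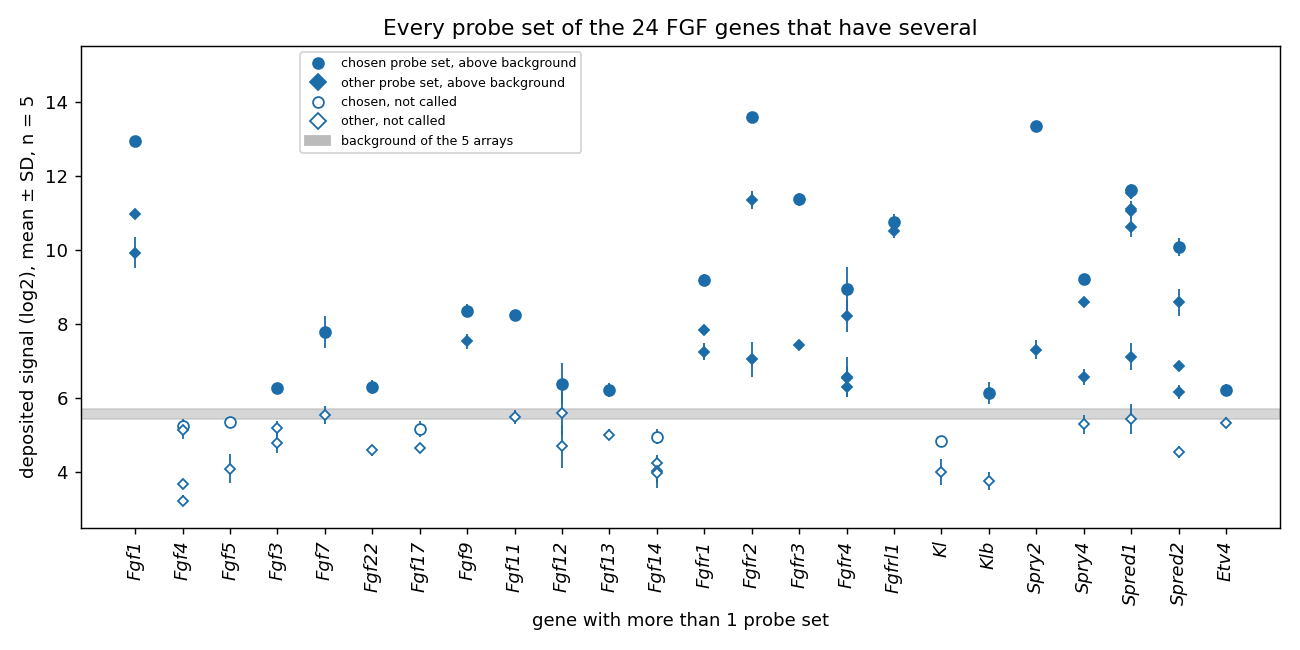
Mean ± SD over 5 arrays (log2 signal, vertical axis) of each probe set of the 24 FGF genes that have several (horizontal axis); circles are the chosen probe sets, diamonds the others, filled symbols were called above background. All probe sets of Fgf1, Fgf9, Fgfr1, Fgfr2, Fgfr3, Fgfr4, Fgfrl1 and Spry2 are filled, while Fgf3, Fgf7, Fgf11, Fgf12, Fgf13, Fgf22, Klb and Etv4 have a single filled symbol each.

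Secreted binding proteins free FGFs from heparan sulfate in the matrix. Fgfbp1 read 12.28, 12.61, 12.44, 12.32 and 12.27, or 6.86 above background (SE 0.079), with replicate 2 highest. Fgfbp3 read 8.09, 8.23, 8.55, 8.29 and 8.04, or 2.72 above (SE 0.12), with replicate 3 highest. The adaptor Frs3, which links receptors to RAS, read 8.16, 8.45, 8.82, 8.05 and 8.45, or 2.86 above (SE 0.14), and was likewise highest in replicate 3.

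The feedback genes were mostly well above background. Spry2, a Sprouty inhibitor of lung branching, read 13.41, 13.32, 13.33, 13.44 and 13.14, or 7.81 above background (SE 0.064, limma adjusted p = 6.60e-21). The other Spry2 probe set, also called, read 7.18, 7.65, 6.97, 7.42 and 7.30 and was lowest in replicate 3. Spry1 read 12.42, 12.27, 12.62, 12.44 and 12.43, and Spry4 read 9.36, 9.11, 9.06, 9.15 and 9.37. Both were called, with Spry1 lowest in replicate 2 and Spry4 lowest in replicate 3. Spry3 was not, at 3.75 ± 0.30. Spred1 and Spred2, membrane proteins that hold back RAF, averaged 11.60 ± 0.15 and 10.08 ± 0.24; 7 of 8 and 4 of 5 of their probe sets were called. Spred3 was not called, at 5.64 ± 0.12 (limma adjusted p = 0.235), and lay above background on 3 of 5 arrays.

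The phosphatase Dusp6, the classical readout of FGF and ERK activity, read 12.40, 12.15, 12.24, 12.35 and 12.06. It lay 6.72 above background (SE 0.071, limma adjusted p = 6.05e-20), with replicates 1 and 4 highest and replicates 2 and 5 lowest. Dusp4, a nuclear phosphatase of the same family, read 10.99, 10.39, 10.69, 10.94 and 10.43, a 1.52-fold range with the same arrays at its top and bottom. Its spread test gave an unadjusted p of 0.0964. Etv4, the ETS factor of the growing lung tip, averaged 6.23 ± 0.16 and lay 0.71 above background (SE 0.13) on 1 of 2 probe sets. It was below background with the 99th percentile. Its relative Etv5 read 13.08, 12.92, 13.02, 13.04 and 12.75, or 7.44 above background.

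**Figure D4:**
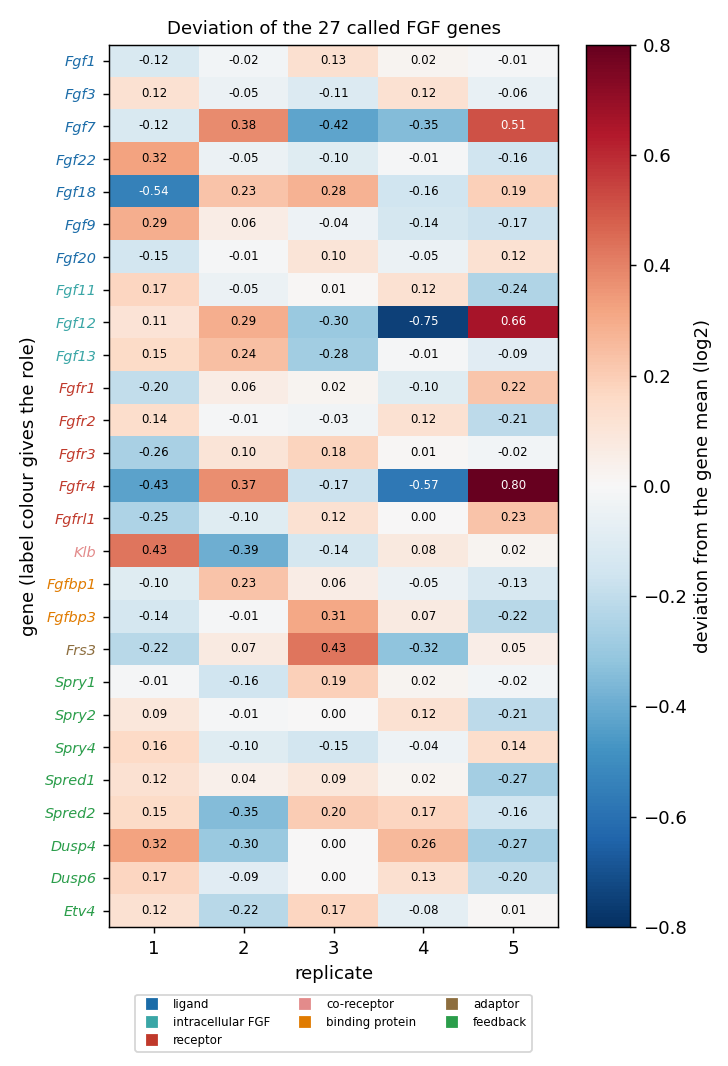
Deviation of each called FGF gene from its mean, after subtraction of the median over all called genes (log2 units, colour and printed number), by replicate (columns); label colour gives the role. Fgfr4 and Fgf12 reach 0.80 and 0.66 in replicate 5, where Fgfr2, Spry2, Spred1, Dusp4 and Dusp6 lie between −0.27 and −0.20.

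The lowest values of the feedback genes lay mainly in replicates 2 and 5. Of the 8 called, 7 were lowest in one or the other of these, and Spry4 was the exception; among all genes above background 34.6% were. The count was 7 under quantile normalization and under median centring too. It rests on 1 probe set per gene: over all 20 called probe sets of these genes, 12 were lowest in replicate 2 or 5, and for Spred2 1 of 4 was. The 7 include the transcription factor Etv4, which lay only 0.71 above background and was called on 1 of 2 probe sets. The pattern was not confined to feedback genes. Of the 51 called pathway genes described below, 15 were lowest in replicate 2 and 14 in replicate 5. Of the 10 adaptors, 7 were lowest in replicate 2 and 1 in replicate 5, against 2 and 3 of the 19 heparan sulfate genes. Etv5 and the early response genes Fos, Egr1 and Dusp1, none of them a member, were lowest in replicate 5 as well, with Fos at 14.02, 13.97, 13.99, 14.05 and 13.81. In the list of other target and feedback genes, 7 of 13 were lowest in replicate 5, against 14.7% of all genes above background. Alveolar type 2 markers were lowest in replicate 5 for 8 of 13 genes and in replicate 2 for 4, with deviations of 0.02, −0.03, 0.02, 0.08 and −0.08. Etv5 is in both lists; without it, 6 of 12 target and feedback genes and 7 of 12 alveolar type 2 markers were lowest in replicate 5. The part of the alveolar type 2 share in the feedback genes was not tested. The pattern was noticed in these values and no member passed the adjusted spread test, so it is a description.

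Differences between replicates were small for most members. A single array stood apart from the other 4, by Dixon's ratio, in 3 of the 43 members and in 5.49% of all genes. The median SD of the 27 called members was 0.170 log2 units and their median range 0.44, against 0.154 and 0.38 over all genes above background. Only Fgf12 and Fgfr4 of the 27 spanned 2-fold or more, as did 9.86% of all genes above background. For 28 of the 43 members the highest and the lowest replicate were the same in the deposited values, after quantile normalization and after median centring; the order changed for Fgfr2, Dusp6, Dusp4, Spry4, Fgf9, Fgfbp1, Fgf3 and Fgf20 among those called. For Dusp6 and Fgfr2, median centring put replicate 4 in place of replicate 1 as the highest and kept replicate 5 lowest. Dusp4 was lowest in replicate 5 in place of replicate 2 under median centring.

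**Figure D5:**
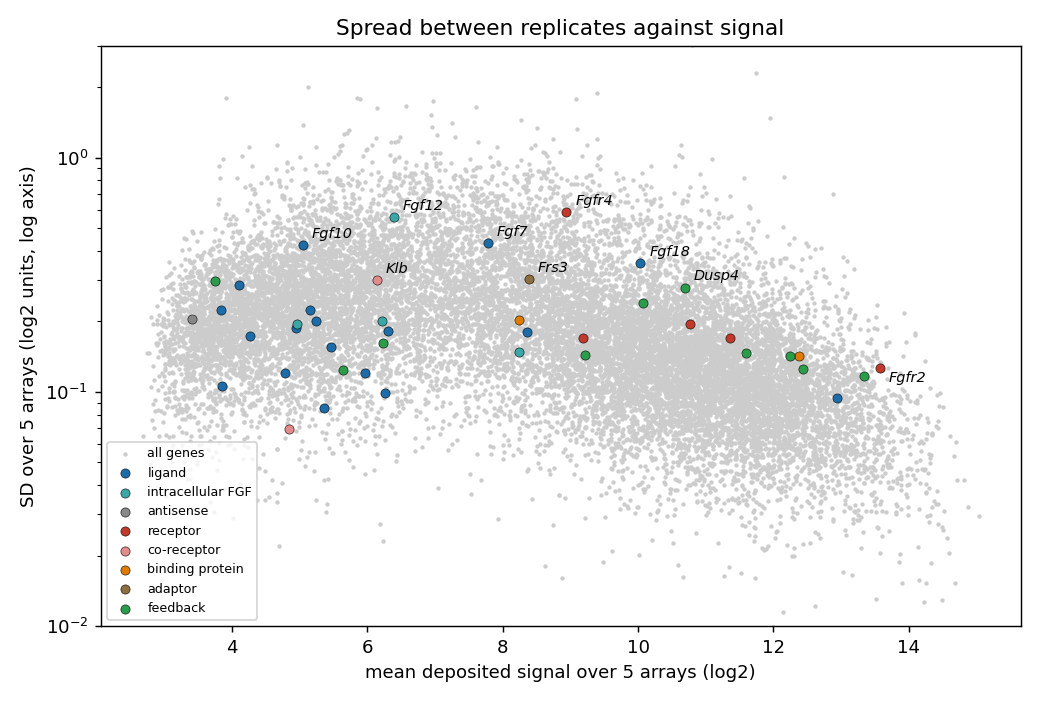
SD over the 5 arrays (log2 units, log axis) against mean log2 signal for all genes (grey) and the FGF genes (coloured by role). Fgfr4 (SD 0.58), Fgf12 (0.56) and Fgf7 (0.43) are the highest of the called members, and genes of high signal such as Fgfr2 (0.13) and Spry2 (0.12) have small SDs.

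The sequence upstream of the start of 4 members is shown because the values of their chosen probe sets moved in opposite ways between arrays. On these, Fgfr2, Spry2 and Dusp6 were lowest in replicate 5, where Fgfr4 was highest. The other called probe sets were lowest in replicate 2 for Fgfr2 and in replicate 3 for Spry2. Each is the 250 bases before the RefSeq start (GRCm38.p6), 5′ to 3′ on the gene's strand. Capitals mark GGAA, or TTCC where it lies on the other strand, the core to which ETS factors such as Etv4 and Etv5 bind.
Fgfr2, chr7:130266809-130267058, minus strand: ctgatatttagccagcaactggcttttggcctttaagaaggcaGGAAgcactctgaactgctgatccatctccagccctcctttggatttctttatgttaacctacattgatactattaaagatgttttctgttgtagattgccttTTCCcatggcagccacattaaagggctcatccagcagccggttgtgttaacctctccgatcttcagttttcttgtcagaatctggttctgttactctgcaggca
Spry2, chr14:105896820-105897069, minus strand: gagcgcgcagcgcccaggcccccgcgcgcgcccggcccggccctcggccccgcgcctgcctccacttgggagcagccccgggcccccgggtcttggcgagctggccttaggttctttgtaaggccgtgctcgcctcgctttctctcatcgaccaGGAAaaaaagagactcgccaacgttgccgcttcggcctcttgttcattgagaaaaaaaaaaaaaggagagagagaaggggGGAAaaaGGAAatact
Dusp6, chr10:99262981-99263230, plus strand: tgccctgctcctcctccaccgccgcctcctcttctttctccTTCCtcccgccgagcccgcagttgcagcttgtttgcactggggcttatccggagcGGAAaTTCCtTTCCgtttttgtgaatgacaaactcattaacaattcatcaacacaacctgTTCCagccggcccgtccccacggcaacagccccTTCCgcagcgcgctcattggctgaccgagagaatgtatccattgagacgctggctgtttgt
Fgfr4, chr13:55152568-55152817, plus strand: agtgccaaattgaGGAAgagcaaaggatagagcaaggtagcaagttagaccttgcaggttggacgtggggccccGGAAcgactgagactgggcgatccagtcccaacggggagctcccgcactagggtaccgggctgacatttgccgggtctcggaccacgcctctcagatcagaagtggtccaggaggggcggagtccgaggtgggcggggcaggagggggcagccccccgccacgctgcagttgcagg

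Dusp6 held 6 copies of the core in its window, Spry2 held 3, and Fgfr2 and Fgfr4 held 2 each; the median of all 32851 windows was 3, and 93.4% held at least 1. Windows were found for 32 of the 43 members. The longer form CCGGAAG, searched on both strands and overlapping the core, was in none of these 4 and in 6.91% of all windows; of the members' 39 windows, 1 held it, that of Fgfrl1. A match is only a run of letters.

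Other genes of the pathway, from lists of adaptors, kinases, targets and heparan sulfate genes, were almost all above background: 51 of 52 measured genes, where 74.9% of all genes were called. All 10 adaptors were called, among them Grb2 (12.36 ± 0.071), Gab1 (12.15 ± 0.068) and Sos1 (11.35 ± 0.14), which carry the signal onward from Frs proteins. All 9 kinases and GTPases measured were called, with Nras at 11.21 ± 0.074, Braf at 11.17 ± 0.25 and the ERK kinase Map2k1 at 11.59 ± 0.14. All 13 targets and feedback genes were called. Il17rd, a membrane inhibitor of FGF receptors, read 7.65, 7.02, 7.83, 7.79 and 7.92 and was lowest in replicate 2. Among 20 heparan sulfate genes, which make or carry the chains that FGFs bind, 19 were called, and the exception was the sulfotransferase gene Hs6st3 (5.47 ± 0.12). The polymerase genes Ext1 and Ext2 had 11.43 ± 0.074 and 9.35 ± 0.14, and Ndst2, an enzyme of chain sulfation, 10.02 ± 0.069. The median SD of the called pathway genes was 0.112.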

How the data were processed

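The deposited values were 1 log2 number per probe set and array, in a table with 45101 probe sets and 5 columns. The log base is inferred from the range (2.46 to 15.24); for software, background correction and normalization the sources used here give nothing. RNA was amplified and biotin-labelled with NuGEN kits for Affymetrix arrays, per the labels' protocols. No scanner files were used, so saturation could not be checked, and precision is limited by the number of arrays. Of the probe sets, 34958 had 1 symbol in a 2016 platform annotation, 932 had several and 9211 were unnamed here; only the first kind was used.

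An intercept model of background-subtracted values was fitted with lmFit and eBayes (trend) of limma 3.58.1 under R 4.3.3. Of the 77 receptor genes, 4 were themselves called when p-values were adjusted over all genes. The spread test divided each variance by the trended robust prior of limma (4 and 3.86 degrees of freedom) over genes above background. Deviations are gene-centred values less the array's median deviation; a marker list's deviation is the mean over its called genes. Both tests were run on simulated data, where the spread test after adjustment recovered genes with the larger of the simulated spreads but none with the smaller, so an absence of adjusted calls does not show that members were stable. Members were named by the symbol rule, and of the pathway lists the first 3 measured genes and the genes not called; Etv5, Fos, Egr1, Dusp1 and Il17rd were added after their values were seen. The members and lists were chosen with earlier results of these data known. Alternatives were other background percentiles and background genes, other probe set rules, normalizations and variance models, no filter on low signal, and leaving out arrays. Upstream sequences are from RefSeq. Figures used matplotlib 3.10.9.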

Additional observations from a re-analysis of the deposited data

Results flagged for a closer look

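In 3 members, a single array stood apart from the other 4 by Dixon's ratio, the gap to the nearest value divided by the whole range. Spred3 had a ratio of 0.823, with 5.42 in replicate 3 against 5.66 to 5.71 elsewhere, at background. Fgf22 had 0.741, with 6.62 in replicate 1 against 6.16 to 6.28, also near background. Spred1 had 0.712, just over the cut-off of 0.71, with 11.35 in replicate 5 against 11.61 to 11.71. Of its 7 called probe sets, 4 were lowest there. Another of them, with the same mean of 11.60, read 11.75, 11.50, 11.56, 11.75 and 11.43, and there replicate 5 lay close to replicate 2. Chance flags about 1 in 20 genes, and 5.49% of all genes were flagged.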

How the results depend on the processing

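The 27 members called were 30 with the 90th percentile as background and 20 with the 99th. There were 24 with the median over probe sets and 25 without probe set types that can cross-hybridise. Without those types, Fgfrl1, Fgf2 and Fgf8 had no probe set left, and Fgf12 (0.07) was no longer called. With organ-restricted genes as background (46 of 50 measured), at 7.78 to 8.49 and so above the array medians, the count fell to 17. It was 27 under the other settings, including each array left out in turn and replicates 1 and 3 together. The spread test called 0 members under each of its alternatives, and 0 to 2 had an unadjusted p under 0.05, the 2 being without replicates 1 and 3 together. Pathway calls ran from 47 to 52 and called member probe sets from 40 to 60. Means relative to background changed sign for genes close to it. With the 90th percentile, Fgf17 (0.07), Fgf4 (0.15), Fgf5 (0.27) and Fgf8 (0.38) lay above it. With the 99th, Etv4 (−0.24), Fgf12 (−0.09), Fgf13 (−0.26), Fgf20 (−0.50), Fgf22 (−0.17), Fgf3 (−0.22), Klb (−0.34) and Spred3 (−0.84) lay below. With organ-restricted genes, Etv4 (−1.76), Fgf12 (−1.60), Fgf13 (−1.78), Fgf20 (−2.02), Fgf22 (−1.69), Fgf3 (−1.74), Fgf7 (−0.21), Klb (−1.85) and Spred3 (−2.35) lay below, and the calls of Fgf11 (0.25) and Fgfbp3 (0.25) were lost. With the median over probe sets, Fgf3 (−0.19) and Klb (−0.42) lay below and Fgf8 (0.09) above. Leaving out single replicates, Fgf8 ran from −0.11 (without replicate 1) to 0.0031 (without replicate 3). No cause beyond the changed background or probe sets was tested. No paired analysis was possible because all samples are of 1 group.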
